A study of Mus musculus with 20 samples.

Results

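The small nucleolar RNAs (snoRNAs) of the mouse colon were described from every probe set that had values and whose single annotated gene symbol begins with Snora or Snord. This rule found 45 probe sets for 44 symbols, among 22360 probe sets with values and 1 symbol and 29195 with values in all. Of the 45, 29 belonged to the C/D class (Snord) and 16 to the H/ACA class (Snora), with Snora33 covered by 2 probe sets. The annotation lists 75 such probe sets, 30 of them without values, and 15 further probe sets with values name a snoRNA together with another gene and were not used.

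SnoRNAs are short nuclear RNAs that guide chemical modification of ribosomal RNA by base pairing with it. C/D snoRNAs direct methylation of the ribose by fibrillarin, and H/ACA snoRNAs direct the conversion of uridine to pseudouridine by dyskerin. Most mammalian snoRNAs are cut out of introns of host genes, many of which encode ribosomal proteins or are non-coding genes of the Snhg family, so that a snoRNA and the spliced transcript of its host come from one precursor but are degraded separately.

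The arrays came from the middle colon of C57BL/6JOlaHsd mice, all female and about 11 weeks of age, with 4 mice in each of 5 groups and 1 array per mouse. Healthy mice received saline (healthy untreated) or, by stomach tube, the 2 probiotic strains L930BB and IM386 mixed (healthy probiotic). Colitis was brought on with 3% dextran sulphate sodium (DSS) in the drinking water over 5 days in mice given saline (colitis untreated), the same probiotic mixture before and during DSS (colitis probiotic), or oral cyclosporine A, an inhibitor of calcineurin, at 25 mg/kg each day from day 1 to day 15 (colitis cyclosporine). There was no healthy group on cyclosporine, and mice were kept 5 to a cage, with the cage of each mouse not given. The strain, sex, age and tissue were the same in every group, and DSS was given to all 3 colitis groups.

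Values are log2 expression per probe set, and each change below is a difference of group means on that scale ± the standard error of the fit, with 4 mice per group. Adjusted p-values are from limma with Benjamini-Hochberg adjustment over all 17439 probe sets tested, and a probe set is called where the adjusted p is under 0.05. Array medians lay between 6.22 and 6.29. On the third principal component cyclosporine mouse 9 was at -22.5, against -12.8 to -4.22 in the rest of its group. It was not among the 3 arrays left out together. Healthy untreated mouse 2, colitis untreated mouse 6 and colitis probiotic mouse 8 stood apart from their groups on the leading principal components. Without these 3 arrays 5 members in place of 8 were called in untreated colitis against healthy, 9 in place of 12 under cyclosporine against healthy, and 9 in place of 11 under cyclosporine against untreated colitis.

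Nearly all of the 45 members exceeded the 25th percentile of named probe sets, a level that is not a limit of detection. Over all their values, named probe sets had a 25th percentile of 5.30, and 44 of the 45 members exceeded it on at least 4 of the 20 arrays, 97.8% against 78.0% of named probe sets. By the mean over 20 arrays 42 members (93.3%) lay above it, against 75.2% of named probe sets, and 39 did so on all 20 arrays. The 8 members with the highest mean were the brighter Snora33 probe set (13.08), Snord82 (11.97), Snord55 (11.70), Snord110 (11.24), Snord49b (11.16), Snord87 (11.10), Snora23 (10.88) and Snora34 (10.83). Signal depends on the probes, so this order of values is not an order of RNA amounts. Just above the level by mean lay Snord19 (5.57), Snord92 (5.62) and Snora35 (5.71). Just below it lay Snord90 (5.25), Snord37 (5.23) and Snord85 (5.14), and Snord85 alone was not tested, with 2 arrays above the level.

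Across all 5 groups 17 of 44 members differed in the F test of limma (38.6%), where 38.2% of all probe sets tested were called, so the members' share was near the background. By class these were 8 of 28 C/D members and 9 of 16 H/ACA members. In 8 comparisons read from the fit 21 members were called at least once and 23 never. The called share of the members was above the background share under cyclosporine against healthy (27.3% against 5.7%) and against untreated colitis (25% against 13.2%). Under cyclosporine against probiotic colitis it was near the background (27.3% against 22.8%). In the other pairwise comparisons it was at or below the background.

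**Figure D1:**
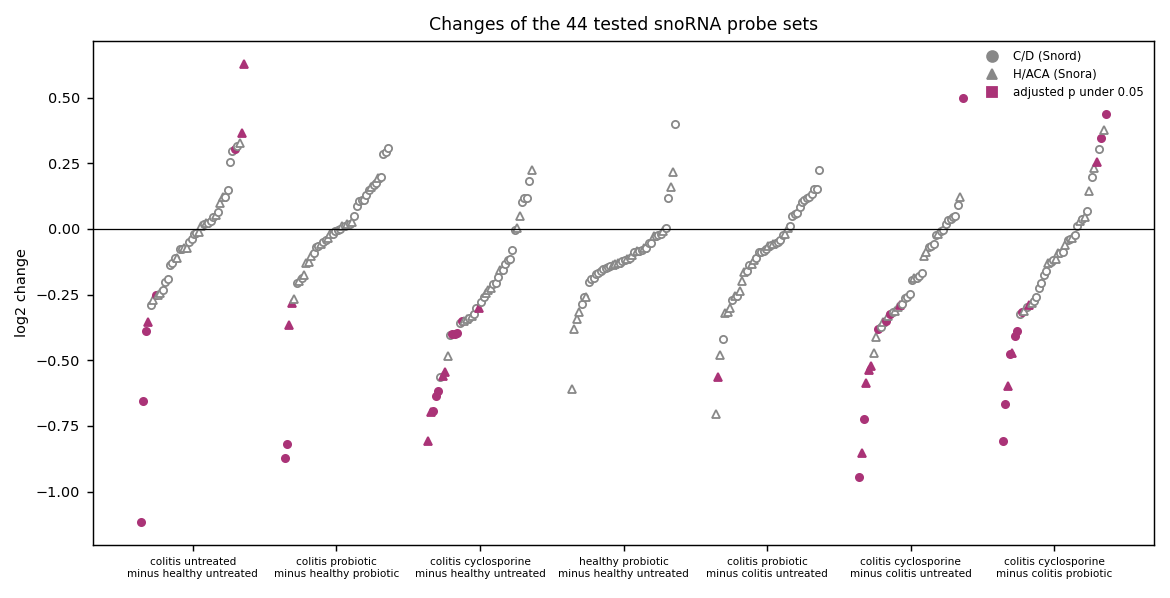
Log2 change (vertical axis) of each of the 44 tested snoRNA probe sets in 7 comparisons, sorted by size within a comparison; circles are C/D and triangles H/ACA members, and filled symbols have an adjusted p under 0.05 (limma). In both comparisons of cyclosporine colitis with an untreated group most points lie below 0 (37 and 36 of 44). The same holds for healthy probiotic against healthy untreated (39 of 44), where no point is filled. Snord89 is the lowest point of untreated colitis against healthy (-1.11) and the highest of cyclosporine against untreated colitis (0.50).

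In untreated colitis a few snoRNAs fell and a few rose against untreated healthy colon. Of 44 members 8 were called, 3 higher and 5 lower, a share of 18.2% where 25.5% of all probe sets tested were called. The median change of the members was -0.03, the same as over all probe sets tested (-0.03), and 25 of 44 changes were below 0 where 55.8% of all were. The members' median was -0.12 without healthy untreated mouse 4, 0.02 without healthy untreated mouse 7 and between these in the other fits that left out 1 array. The members called lower were Snord89, Snord123, Snord71, Snora34 and Snord55, and those called higher were Snora31, the dimmer Snora33 probe set and Snord53. In 7 members, 5 of them lower, the 4 mice of one group did not overlap with the 4 of the other, where this held for 24.1% of all probe sets tested and 13.7% were lower. Fewer cells of a type and less RNA per cell cannot be told apart in RNA from whole tissue.

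Snord89, a C/D snoRNA, showed the largest change of any member in this comparison. Its values were 9.65, 9.30, 9.86 and 9.83 in the healthy untreated mice and 8.48, 8.35, 8.67 and 8.69 in the colitis untreated mice. Every healthy mouse lay above every colitis mouse. The fall by 1.11 ± 0.11 is a 2.17-fold lower signal (adjusted p = 2.5e-06, limma). Snord89 was the only member that lay inside no other annotated gene; the nearest coding gene was Cnot11, which encodes a subunit of the deadenylase complex CCR4-NOT.

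Snord123, a C/D snoRNA within the non-coding host gene Snhg18, was at 9.25, 9.31, 9.59 and 9.91 in the healthy untreated mice. In the colitis untreated mice it was at 8.61, 8.996, 8.87 and 8.95. There was no overlap between these groups, and it fell by 0.66 ± 0.14 (adjusted p = 0.00184, limma). Its host Snhg18 fell with it, by 0.64 ± 0.11 (adjusted p = 0.000379, limma).

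Snord71, which lies within the adaptor protein gene Ap1g1, fell by 0.39 ± 0.09 (adjusted p = 0.00359), and Snora34, within Kansl2, fell by 0.35 ± 0.10 (adjusted p = 0.0125), both in limma and both without overlap between groups. The changes of these hosts were -0.13 ± 0.07 (Ap1g1, adjusted p = 0.2, limma) and 0.02 ± 0.08 (Kansl2, adjusted p = 0.896, limma). Snord55 fell by 0.25 ± 0.09 with an adjusted p of 0.0446 in limma. That call was lost in 6 of the 8 fits that left out 1 array, and the Snora34 call was lost without healthy untreated mouse 7.

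Snora31, an H/ACA snoRNA within Tpt1, rose in untreated colitis. Its values were 7.27, 7.23, 7.18 and 7.52 in the healthy untreated mice and 7.73, 8.33, 7.998 and 7.67 in the colitis untreated mice. The groups did not overlap, and the rise was 0.63 ± 0.14 (adjusted p = 0.0022, limma), while Tpt1, the gene of translationally controlled tumour protein, differed by 0.09 ± 0.12 (adjusted p = 0.614, limma).

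The dimmer Snora33 probe set rose by 0.36 ± 0.13 (adjusted p = 0.0437, limma) and Snord53, within the ribosome biogenesis gene Wdr43, by 0.30 ± 0.11 (adjusted p = 0.0441, limma). Each of these calls was lost in 6 of 8 fits without 1 array. The brighter Snora33 probe set differed by -0.01 ± 0.08 in the same comparison, so the 2 probe sets of Snora33 disagreed.

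**Figure D2:**
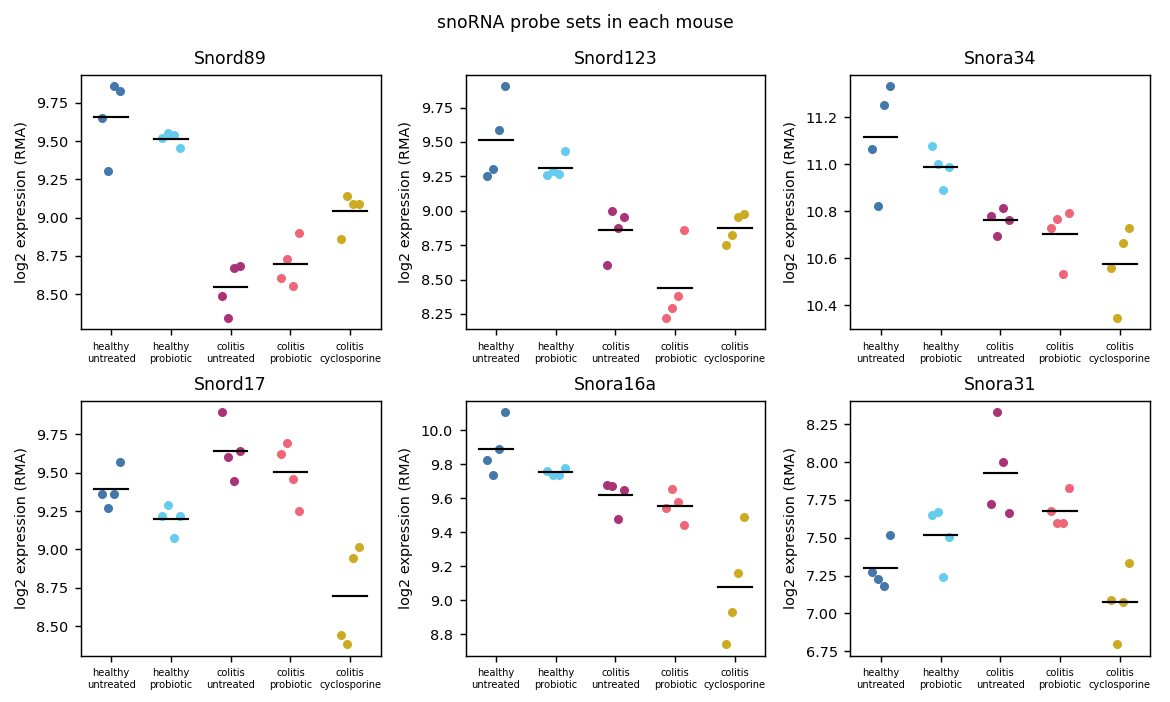
Log2 expression (RMA) of 6 snoRNA probe sets in each mouse; points are mice, bars are means of 4 mice, and the vertical axes differ between panels and do not start at 0. By group mean, Snord89, Snord123 and Snora34 are lower in each colitis group than in either healthy group, Snord17 and Snora16a are lowest under cyclosporine, and Snora31 is highest in untreated colitis.

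With the probiotic given to both groups, colitis against healthy called 4 members, all lower, where 29.1% of all probe sets tested were called and 15.8% were called lower. The median change of the members was -0.01, against -0.04 over all probe sets tested, and 23 of 44 changes were below 0 where 57.8% of all were. In 6 members, all lower, the groups did not overlap, where 30.7% of all probe sets tested did not overlap and 17.2% were lower. Snord123 was at 9.26, 9.29, 9.26 and 9.43 in the healthy probiotic mice and at 8.22, 8.29, 8.38 and 8.86 in the colitis probiotic mice. It fell by 0.87 ± 0.14 (adjusted p = 9.9e-05, limma) without overlap.

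Snord89 was at 9.52, 9.55, 9.54 and 9.45 in the healthy probiotic mice and at 8.61, 8.73, 8.55 and 8.90 in the colitis probiotic mice. No colitis mouse reached the healthy range, and it fell by 0.82 ± 0.11 (adjusted p = 2.27e-05, limma). Thus Snord89 and Snord123 fell in 2 comparisons of colitis with healthy colon that share no mice. The host Snhg18 fell by 0.66 ± 0.11 here (adjusted p = 0.000171, limma).

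Snora23, an H/ACA snoRNA within the nuclear import receptor gene Ipo7, was at 11.17, 11.03, 11.04 and 10.98 in the healthy probiotic mice and at 10.69, 10.74, 10.62 and 10.70 in the colitis probiotic mice. The groups did not overlap, and it fell by 0.37 ± 0.07 (adjusted p = 0.000848, limma). In untreated mice the difference between colitis and healthy was -0.07 ± 0.07 for Snora23 (adjusted p = 0.509, limma), and the difference between these effects did not pass the test (-0.29 ± 0.10, adjusted p = 0.49, limma). Snora34 fell by 0.28 ± 0.10 (adjusted p = 0.0369, limma), a call lost in 6 of 8 fits without 1 array. Its host Kansl2 fell as well in these mice, by 0.29 ± 0.08 (adjusted p = 0.0116, limma).

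Cyclosporine-treated colitis showed lower snoRNA signal than untreated healthy colon in members of both classes. Of 44 members 12 were called, all of them lower, a share of 27.3% where 5.7% of all probe sets tested were called, 2.48% higher and 3.22% lower. The median change of the members was -0.29 (C/D -0.27, H/ACA -0.32), against -0.03 over all probe sets tested. The change was below 0 in 37 of 44 members, where this held for 57.3% of all probe sets tested. In 8 members, all lower, the groups did not overlap, against 14.4% of all probe sets tested in either direction and 8.03% lower. This comparison shares the healthy untreated mice with that of untreated colitis.

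The count of called members depended on single mice. It was 7, 19, 6 and 5 without healthy untreated mouse 2, 4, 6 and 7 in turn, and 5 and 6 without cyclosporine mouse 4 and 7. The median change stayed between -0.38 and -0.21 in the fits that left out 1 array. Of the 10 members named for the size of their fall, Snora16a, Snord17, Snord123, Snord89 and Snora34 kept their call in every such fit.

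Snora16a, an H/ACA snoRNA within the non-coding gene Snhg12, had values of 9.83, 9.74, 9.89 and 10.11 in the healthy untreated mice. In the cyclosporine mice it was at 8.74, 8.93, 9.16 and 9.49. The groups did not overlap, and the fall by 0.81 ± 0.11 (adjusted p = 0.00199, limma) is a 1.75-fold lower signal. Snhg12 differed by -0.20 ± 0.07 (adjusted p = 0.0961, limma).

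Snord17, a C/D snoRNA within the sorting nexin gene Snx5, was at 9.36, 9.27, 9.36 and 9.57 in the healthy untreated mice and at 8.44, 8.38, 8.95 and 9.02 in the cyclosporine mice. Cyclosporine mice 4 and 7 were lower than mice 9 and 10, and all 4 lay below the healthy mice. It fell by 0.69 ± 0.13 (adjusted p = 0.00868, limma), with Snx5 at 0.06 ± 0.07 (adjusted p = 0.631, limma).

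Snora34 was at 11.07, 10.82, 11.25 and 11.33 in the healthy untreated mice, against 10.56, 10.35, 10.66 and 10.73 in the cyclosporine mice. There was no overlap, and it fell by 0.54 ± 0.10 (adjusted p = 0.00633, limma), with Kansl2 at -0.06 ± 0.08 (adjusted p = 0.709, limma). Snord123 fell by 0.64 ± 0.14 (adjusted p = 0.0146, limma), together with Snhg18 (-0.41 ± 0.11, adjusted p = 0.0359, limma). Snord89 fell by 0.62 ± 0.11 (adjusted p = 0.00609, limma), from the healthy values above to 8.86, 9.14, 9.09 and 9.09.

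The other 5 members of the 10 with the largest falls lost their call in some of the 8 fits without 1 array. The call was lost in 6 of these fits for Snora15, in 5 each for Snord35a, Snord35b and Snord110, and in 2 for Snora69. Snora69, within Rpl39, fell by 0.70 ± 0.16 (adjusted p = 0.0189, limma), a call lost without healthy untreated mouse 7, whose value of 9.74 was far above the others (8.67 to 9.13), or without cyclosporine mouse 4. Snora15, within the chaperonin gene Cct6a, fell by 0.56 ± 0.14 (adjusted p = 0.0281, limma) while Cct6a differed by -0.02 ± 0.08. Snord35a, within the ribosomal protein gene Rpl13a, and Snord35b each fell by 0.40 (adjusted p = 0.0247 and 0.0327, limma), and Snord110, within the C/D core protein gene Nop56, fell by 0.39 (adjusted p = 0.0371, limma). The 2 smaller falls, named after their values were seen, were those of Snord71 (-0.35, adjusted p = 0.031, limma) and the brighter Snora33 probe set (-0.30, adjusted p = 0.0404, limma). The C/D snoRNAs of Rpl13a are known as mediators of lipotoxic stress.

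Against untreated colitis, cyclosporine-treated colitis had lower signal in 10 snoRNA probe sets and higher signal in 1. The called share was 25% of 44 members where 13.2% of all probe sets tested were called, and for calls lower 5.47% of all. The median change of the members was -0.22 (C/D -0.17, H/ACA -0.32), against -0.01 over all probe sets tested, and 36 of 44 changes were below 0 where 52.2% of all were. There was no overlap between groups in 8 members, 7 of them lower, against 15% of all probe sets tested in either direction and 6.77% lower. The count was 6 without colitis untreated mouse 5, without cyclosporine mouse 4 and without cyclosporine mouse 7.

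Snord17 had the largest fall, by 0.95 ± 0.13 (adjusted p = 0.00023, limma), from 9.89, 9.60, 9.44 and 9.64 in the colitis untreated mice to the cyclosporine values given above. Snora31 was at 7.09, 6.80, 7.08 and 7.34 in the cyclosporine mice, all of them below the colitis untreated mice. It fell by 0.85 ± 0.14 (adjusted p = 0.000527, limma), and its difference from healthy untreated colon was -0.22 ± 0.14 (adjusted p = 0.328, limma). Snora31 was thus higher in untreated colitis than in either the healthy untreated or the cyclosporine group.

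Snord104, a C/D snoRNA within a non-coding gene, was at 10.57, 10.53, 10.51 and 10.28 in the colitis untreated mice and at 9.55, 9.67, 9.76 and 10.02 in the cyclosporine mice. The groups did not overlap, and it fell by 0.72 ± 0.14 (adjusted p = 0.00222, limma). Snora69 fell by 0.59 ± 0.16 (adjusted p = 0.0211, limma), Snora16a by 0.54 ± 0.11 (adjusted p = 0.00452, limma) and the dimmer Snora33 probe set by 0.52 ± 0.13 (adjusted p = 0.0117, limma). The brighter Snora33 probe set fell by 0.29 ± 0.08 (adjusted p = 0.0266, limma), so here the 2 probe sets changed in one direction. The calls of Snora69 and of the brighter Snora33 probe set were each lost in 4 of 8 fits without 1 array. Smaller falls were called for Snord15a (-0.38, adjusted p = 0.0383, limma), Snord73a (-0.35, adjusted p = 0.0441, limma) and Snord35a (-0.32, adjusted p = 0.0332, limma), and each of these calls was lost in 5 or 6 of 8 fits without 1 array.

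Snord89 moved the other way and rose by 0.50 ± 0.11 (adjusted p = 0.00611, limma). All 4 cyclosporine mice lay above the colitis untreated mice (8.35 to 8.69) and below the healthy untreated mice (9.30 to 9.86). Snord123, at 8.75, 8.82, 8.95 and 8.98 under cyclosporine, differed from untreated colitis by 0.02 ± 0.14 (adjusted p = 0.95, limma).

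Against probiotic-treated colitis, cyclosporine-treated colitis called 12 of 44 members, 3 higher and 9 lower, a share of 27.3% where 22.8% of all probe sets tested were called, so this count was near the background. The median change of the members was -0.12, against 0.02 over all probe sets tested, and 31 of 44 changes were below 0 where 46.4% of all were. In 10 members, 9 of them lower, the groups did not overlap, against 20.8% of all probe sets tested in either direction and 10.9% lower. The members' median was -0.23 without cyclosporine mouse 9, but -0.0675 and -0.0501 without cyclosporine mouse 7 and 4. The count of calls was 7 without colitis probiotic mouse 5. The lower members were led by Snord17 (-0.81 ± 0.13, adjusted p = 0.000417, limma), Snord104 (-0.67 ± 0.14, adjusted p = 0.002, limma) and Snora31 (-0.60 ± 0.14, adjusted p = 0.00373, limma). Snord35a (-0.48), Snora16a (-0.47), Snord87 (-0.41), Snord35b (-0.39), Snord110 (-0.32) and the brighter Snora33 probe set (-0.29) fell as well. Of these 9 falls, that of Snord110 lost its call in 5 of 8 fits without 1 array, that of Snord87 in 3 and that of the brighter Snora33 probe set in 2. Snord123 (0.44 ± 0.14, adjusted p = 0.0281, limma), Snord89 (0.35 ± 0.11, adjusted p = 0.0293, limma) and Snora23 (0.25 ± 0.07, adjusted p = 0.0172, limma) rose. Of the 8 fits without 1 array, the call was lost in 5 for Snord123, in 6 for Snord89 and in 1 for Snora23. Both comparisons of cyclosporine with a colitis group use the same cyclosporine mice.

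For the probiotic against saline, no snoRNA probe set was called in healthy colon and 1 was called in colitis. In healthy mice 0 of 44 members were called by limma, where 0% of all probe sets tested were called, and the smallest adjusted p was 0.43. At an unadjusted p under 0.05 there were 5 members and 1559 probe sets in all. The change was below 0 in 39 of 44 members, where this held for 52.8% of all, with a median of -0.12 against -0.01. The members' median was -0.20 without healthy untreated mouse 4 and -0.0463 without healthy untreated mouse 7. In 2 members, both lower, the groups did not overlap, against 7.01% of all probe sets tested in either direction and 2.97% lower. The members with the smallest p below 0 were Snora47 (-0.32 ± 0.12), Snora15 (-0.34 ± 0.14) and Snora69 (-0.38 ± 0.16), and those above 0 were Snora23 (0.16 ± 0.07), Snord37 (0.40 ± 0.21) and Snora31 (0.22 ± 0.14).

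In colitis the dimmer Snora33 probe set was the single member called under the probiotic, where 2.66% of all probe sets tested were called, 2.03% higher and 0.631% lower. It was at 7.67, 7.77, 7.70 and 7.92 in the colitis untreated mice and at 7.15, 7.38, 7.14 and 7.13 in the colitis probiotic mice. Every probiotic mouse lay below every untreated mouse, and it fell by 0.57 ± 0.13 (adjusted p = 0.0286, limma), while the brighter probe set differed by 0.00 ± 0.08. The call was lost without colitis untreated mouse 6 or 10 and without colitis probiotic mouse 3, 5 or 7. In 30 of 44 members the change was below 0, where this held for 55.6% of all probe sets tested, and in 5 members, all lower, the groups did not overlap, against 7.9% of all in either direction and 4.28% lower. All but 1 of the 16 H/ACA members had a change below 0 in this comparison, with a median of -0.22, against 15 of 28 C/D members with a median of -0.03. The interaction of probiotic and colitis called 0 members by limma, where 0% of all probe sets were called, with 6 members and 1488 probe sets in all at an unadjusted p under 0.05. Its estimate was below 0 in 17 of 44 members, where this held for 49.4% of all. The members with the smallest p in it were Snora23 (-0.29 ± 0.10), the dimmer Snora33 probe set (-0.49 ± 0.18) and Snora31 (-0.47 ± 0.19) below 0 and Snord35b (0.38 ± 0.15), Snord72 (0.40 ± 0.19) and Snord89 (0.29 ± 0.16) above 0.

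The lower signal under cyclosporine was uneven between mice. As a summary of each mouse, the deviation of each member from its own mean over 20 arrays was taken and the median over members formed. This median was 0.14, -0.15, 0.11 and 0.30 in the healthy untreated mice and -0.34, -0.30, 0.00 and -0.04 in cyclosporine mice 4, 7, 9 and 10. Cyclosporine mice 4 and 7 were the lowest of all 20, mice 9 and 10 lay within the range of the colitis probiotic group, and healthy untreated mouse 4 was below both of these. The mean ± SD over 4 mice was 0.10 ± 0.19 (healthy untreated), 0.00 ± 0.04 (healthy probiotic), 0.04 ± 0.06 (colitis untreated), -0.02 ± 0.06 (colitis probiotic) and -0.17 ± 0.18 (colitis cyclosporine).

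**Figure D3:**
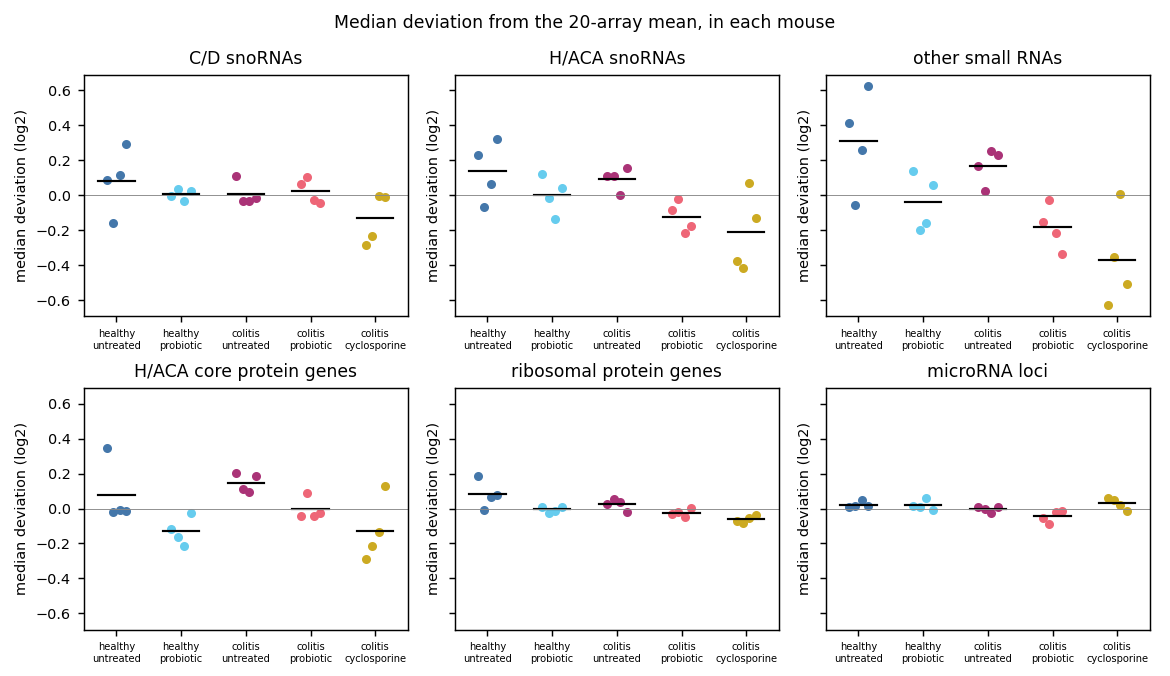
For each mouse, the median over a list of the log2 deviation of each probe set from its mean over 20 arrays; points are mice and bars are means of 4 mice. C/D and H/ACA snoRNAs and the 5 other small RNAs are lowest on average in the cyclosporine group and spread widely in the healthy untreated group. Ribosomal protein genes are also lowest on average under cyclosporine, between -0.08 and -0.04 in its mice. MicroRNA loci stay between -0.09 and 0.06 in every mouse.

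Other small non-coding RNAs also differed between mice. The 5 probe sets of these, for Rnu3a, Rpph1, Rny3, Vaultrc5 and the telomerase RNA Terc, had median deviations of 0.42, -0.06, 0.26 and 0.63 in the healthy untreated mice and -0.63, -0.35, 0.01 and -0.51 in the cyclosporine mice, so mouse 4 was the lowest healthy untreated mouse on both lists. Of these 5, 3 were lower under cyclosporine than in healthy untreated colon and 3 lower than in untreated colitis. Rnu3a, the U3 snoRNA of ribosomal RNA cleavage, whose symbol falls outside the rule, fell by 0.98 ± 0.26 (adjusted p = 0.0375, limma) and by 1.68 ± 0.26 (adjusted p = 0.000458, limma). It was also lower under the probiotic in colitis, by 1.05 ± 0.26 (adjusted p = 0.0406, limma), where Rpph1 was at -1.17 ± 0.32 (adjusted p = 0.0538, limma). The vault RNA Vaultrc5 fell by 0.79 ± 0.15 (adjusted p = 0.00722, limma) and by 0.58 ± 0.15 (adjusted p = 0.0139, limma).

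The Y RNA Rny3 fell against healthy (-0.44 ± 0.11, adjusted p = 0.0265, limma), as it did in untreated colitis (-0.50 ± 0.11, adjusted p = 0.00243, limma), and Rpph1, the RNA of ribonuclease P, fell against untreated colitis (-0.995 ± 0.32, adjusted p = 0.0451, limma). Of 4 small Cajal body RNAs, which guide modification of spliceosomal RNAs, 1 was lower than in healthy and 2 were lower than in untreated colitis. These were Scarna10 (-0.38 ± 0.09, adjusted p = 0.0223, limma) in the first and Scarna2 (-0.58 ± 0.11, adjusted p = 0.00265, limma) and Scarna6 (-0.56 ± 0.15, adjusted p = 0.0216, limma) in the second. Of 388 microRNA loci with values, 167 passed the filter and were tested. Of these, 2 were called against healthy, both lower, with a median change of -0.01. Against untreated colitis 7 were higher and 3 lower, with a median change of 0.04. What part recovery or labelling of short RNA has in the lower snoRNA signal was not tested.

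The signal of cell type markers also differed between the groups. Smooth muscle markers were lower in untreated colitis than in healthy colon in 14 of 15 probe sets and higher under cyclosporine than in untreated colitis in 13 of 15. Their median deviation in a mouse ranged from 0.20 to 0.36 in healthy untreated, from -0.55 to -0.15 in colitis untreated and from -0.25 to 0.40 in cyclosporine mice. Neutrophil markers were higher in untreated colitis in 8 of 13 and lower under cyclosporine in 6 of 13. B cell and plasma cell markers were higher in untreated colitis in 10 of 13. Macrophage markers were higher there in 11 of 17 and T cell markers in 7 of 10. Colonocyte markers were lower there in 7 of 16 and higher in 1. Enteric neuron and glia markers were lower in 5 of 14 and higher in 1. Of all probe sets tested, 11.3% were higher and 14.2% lower in untreated colitis. Under cyclosporine against untreated colitis colonocyte markers were higher in 8 of 16 and lower in 1. There, 7.7% of all probe sets tested were higher and 5.47% lower. Against healthy untreated colon, where 12 snoRNA probe sets were lower under cyclosporine, 4 of 17 macrophage markers were higher (median change 0.56), 2 of 10 T cell markers higher (0.26), 1 of 13 neutrophil markers higher (0.07) and 2 of 16 colonocyte markers lower (-0.14). In that comparison limma called 0 of 15 smooth muscle markers (median -0.16), 0 of 13 B cell and plasma cell markers (0.50) and 0 of 14 enteric neuron and glia markers (-0.14), with 0, 2 and 3 of them at an unadjusted p under 0.05. Of all probe sets tested, 2.48% were higher and 3.22% lower under cyclosporine against healthy. The part of the cell type markers in the snoRNA changes was not tested.

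Under cyclosporine against an untreated group, hosts and their snoRNAs were seldom called together. By the RefSeq gene spans of the mouse assembly GRCm38.p6, 44 of 45 members lay inside another gene and 41 inside exactly 1; the table gives no strand, so the orientation was not checked. In 30 pairs, over 26 hosts, both snoRNA and host were tested. Under cyclosporine against healthy, 7 snoRNAs of these pairs were lower. Of the 26 hosts 3 were lower, where 3.22% of all probe sets tested were, and 1 was higher, where 2.48% were. In 1 pair, Snord123 and Snhg18, both were called. The median change over the pairs was -0.24 for the snoRNAs and -0.07 for the hosts. Under cyclosporine against untreated colitis these medians were closer, -0.19 for the snoRNAs and -0.16 for the hosts. There, 4 snoRNAs and 2 hosts were lower, with no pair with both called. In probiotic colitis against healthy probiotic, 3 snoRNAs and 2 of the 26 hosts were called, where 29.1% of all probe sets were. In 2 pairs both fell, Snord123 with Snhg18 and Snora34 with Kansl2. In untreated colitis against healthy, 5 snoRNAs and 2 hosts were called (25.5% of all). Against probiotic colitis, cyclosporine called 7 snoRNAs and 1 host (22.8% of all). In both of these comparisons Snord123 and Snhg18 were called together.

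Some hosts fell without a call in the snoRNAs they hold. The non-coding gene 2410006H16Rik fell by 0.44 ± 0.10 (adjusted p = 0.0159, limma) under cyclosporine against healthy. The 3 snoRNAs inside it differed by -0.18 (Snord49b), -0.13 (Snord49a) and -0.34 (Snord65), with adjusted p of 0.382, 0.463 and 0.0733 in limma. The ribosomal protein gene Rps3 fell by 0.37 ± 0.07 (adjusted p = 0.00791, limma), with its Snord15a at -0.26 (adjusted p = 0.19, limma). A probe within a snoRNA can also bind the unspliced host transcript, and these sources of signal cannot be told apart.

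**Figure D4:**
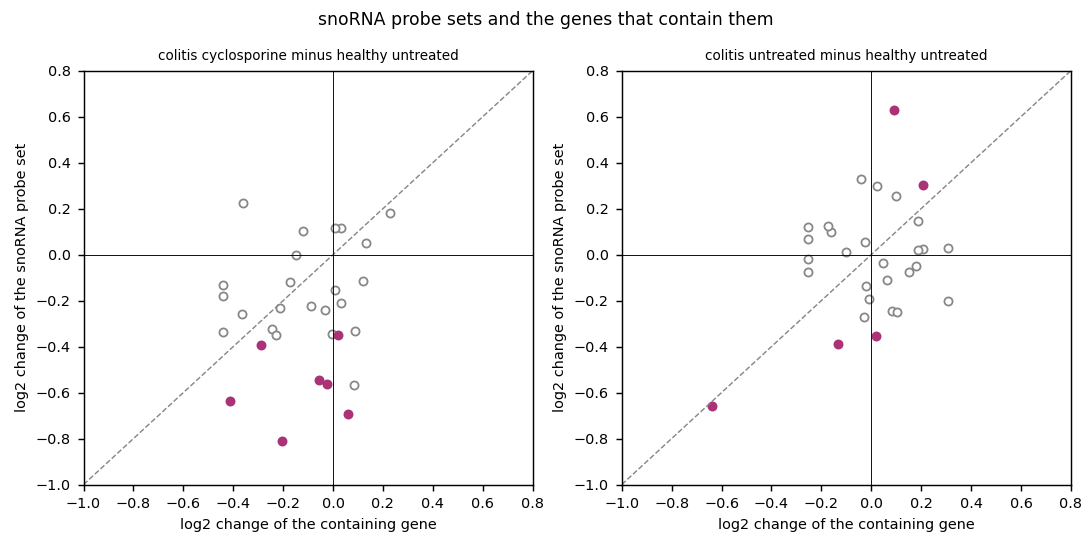
Log2 change of each snoRNA probe set (vertical axis) against that of the gene containing it (horizontal axis) for 30 pairs; filled points are snoRNAs with an adjusted p under 0.05, and the dashed line marks equal change. Under cyclosporine (left) most filled points lie well below the line near a host change of 0; in untreated colitis (right) Snord123 and Snhg18 lie on the line at -0.66 and -0.64.

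Host genes of snoRNAs often start transcription in a run of pyrimidines, known as a 5′ terminal oligopyrimidine tract. The windows around the annotated starts of 4 hosts are shown because a snoRNA inside each fell under cyclosporine against healthy. Snhg12 and Snhg18 are examples with a run of at least 8 C or T in the window, and Snx5 and Cct6a are examples without. Each holds the 15 bases before and the 15 bases from the start on, from RefSeq in GRCm38.p6, on the strand of the gene, with runs of at least 8 C or T in capitals.
Snhg18 (host of Snord123, chr15:32244648-32244677, minus strand): accttcccaggCCCCTCCTCTagccccgcc
Snhg12 (host of Snora16a, chr4:132308663-132308692, plus strand): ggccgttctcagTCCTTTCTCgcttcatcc
Snx5 (host of Snord17, chr2:144270558-144270587, minus strand): ctgctgggatggtggcggagtcccgcggcc
Cct6a (host of Snora15, chr5:129787341-129787370, plus strand): ctgtgggcacgccgggggcgggccgggtgc
A run of at least 8 C or T anywhere in a window, on the strand of the gene alone, was present in 7 of the 33 containing genes found in the table (21.2%) and in 13.9% of 26989 other genes. The run did not have to begin at the start, so these shares do not count 5′ terminal oligopyrimidine tracts.

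Genes of the snoRNA machinery were called in part. The background is 3.22% of all probe sets tested called lower under cyclosporine against healthy and 5.47% against untreated colitis. The 4 tested probe sets of C/D core proteins were for Nop58, Snu13 and Nop56 (2 probe sets), so fibrillarin was not among them. Of these 4, 1 was called under cyclosporine against healthy, Snu13 (-0.34 ± 0.10, adjusted p = 0.0438, limma). Of the 4 H/ACA core proteins, 2 were lower under cyclosporine than in untreated colitis. These were Nop10 (-0.46 ± 0.10, adjusted p = 0.00367, limma) and Nhp2 (-0.41 ± 0.11, adjusted p = 0.0218, limma), while the pseudouridine synthase gene Dkc1 differed by -0.02 ± 0.12 (adjusted p = 0.953, limma). Against healthy, Nop10 differed by -0.31 ± 0.10 (adjusted p = 0.0581, limma).

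Of 17 probe sets of snoRNP assembly and transport, 1 was called, higher, under cyclosporine against untreated colitis. Of 51 probe sets of ribosomal RNA processing and RNA polymerase I, 1 was higher and 3 lower than in healthy, and 3 were lower than in untreated colitis. Cytosolic ribosomal protein genes, which include many hosts, were lower than in healthy in 7 of 63 tested probe sets (median -0.15) and lower than in untreated colitis in 4, with 1 higher (median -0.10). Of 16 probe sets of the Snhg family, 1 was called lower than in healthy (median -0.20, against -0.03 over all probe sets tested). Against healthy, 10 of the 16 had an unadjusted p under 0.05 in limma, as did 4125 of all 17439. Against untreated colitis 2 were called lower (median -0.07, against -0.01 over all). These were Snhg1 (-0.30 ± 0.08, adjusted p = 0.016, limma) and Snhg6 (-0.30 ± 0.09, adjusted p = 0.0416, limma).

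Among members that were never called, Snora62 and Snora74a had the widest range over the 20 arrays, and they were chosen for this after their values were seen. Snora62, within the ribosomal protein gene Rpsa, was at 8.71, 8.998, 11.38 and 9.28 in cyclosporine mice 4, 7, 9 and 10, and at 9.40, 10.40, 9.19 and 9.79 in colitis untreated mice 5, 6, 7 and 10. Snora74a, within Snhg4, was at 6.60, 6.84, 9.21 and 7.32 in the same cyclosporine mice and at 7.74, 8.18, 7.70 and 8.24 in the same colitis untreated mice. Both were highest of all 20 in cyclosporine mouse 9, in which the median of all members was not raised (0.00).

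The 23 tested members without a call had changes between -0.57 (Snord61) and 0.22 (Snora62) under cyclosporine against healthy. Snord61, a C/D snoRNA within the splicing gene Rbmx, was at 9.004, 9.30, 9.72 and 9.86 in the cyclosporine mice and at 9.95, 9.71, 9.99 and 10.50 in the healthy untreated mice. Its groups overlapped, and the adjusted p was 0.0706 in limma. Snord85, the member that was not tested, had group means between 4.98 (colitis untreated) and 5.26 (healthy untreated).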

How the data were processed

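Total RNA of 20 mice, 1 array each, was labelled with biotin by way of transcribed RNA and new cDNA, per the labels' protocols. The authors deposited log2 values per probe set, normalised with RMA per the submitters' processing notes. The sources used here state neither the version of RMA nor the annotation behind it. RMA sets each array to one distribution, so a change is relative to the other probe sets, and short RNAs can be recovered and labelled unlike long ones. Of 41801 probe sets, 29195 had values. Symbols came from the platform table, which gave 1 symbol for 22360, several for 1013 and none for 5822.

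Values were used as deposited. Probe sets with 1 symbol above 5.30, the 25th percentile of named values, on at least 4 arrays (17439) were fitted in R 4.3.3 with limma 3.58.1 (lmFit with 5 group means, eBayes, 15 residual and 4.08 prior degrees of freedom). Groups came from the titles, and the series states biological replicates. The fit was tested on simulated data. Arrays carry no read depth, and their number limits the precision.

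Named in each comparison were up to 10 called members per direction with the largest change, or the 3 with the smallest p where none passed. Named too were the 8 highest by mean, those next to the filter level and both Snora33 probe sets. Members, lists and tests were chosen with earlier results of these data known. Hosts come from RefSeq gene spans of GRCm38.p6, matched by gene identifier for all 45 members, without strand. Alternatives were the filter, probe set choice, probe sets without a symbol included, scaling, moderation, weights, the samples fitted, animal number as a block and each array left out; leaving out 3 arrays that stood apart was added after seeing the data.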

Additional observations from a re-analysis of the deposited data

Results flagged for a closer look

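In 24 items, the named members and the member median, each group of 4 mice was examined for a mouse far from the other 3, and 9 of 120 groups held one, where chance gives about 1 in 20. Colitis untreated mouse 5 was high in Snord110 (11.50 against 11.14 to 11.19), Snord49b (11.56 against 11.11 to 11.15) and Snord55 (11.75 against 11.51 to 11.54). Colitis untreated mouse 7 was low in Snora16a (9.48 against 9.65 to 9.68). Among the colitis probiotic mice, mouse 5 was high in the dimmer Snora33 probe set (7.38 against 7.13 to 7.15), mouse 8 was high in Snord73a (8.25 against 8.09 to 8.11) and mouse 3 was low in Snord71 (8.89 against 8.95 to 8.96). Among the healthy probiotic mice, mouse 7 was high in Snord123 (9.43 against 9.26 to 9.29), and mouse 6 was low in the median deviation over all members (-0.0531 against 0.02 in the others).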

How the results depend on the processing

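No named change reversed in any setting; of 46, 24 kept their call in every fit without 1 array and 26 lost it in at least 1 other setting. Fitting the compared groups alone called 5 members under cyclosporine against healthy (12 in the fit of all groups), 6 against untreated colitis (11) and 0 for the probiotic in colitis (1). That last count was also 0 with 1 probe set per symbol or the mean of a symbol's probe sets, and 2 with array weights. Untreated colitis against healthy gave 5 in place of 8 with no filter or without the 3 arrays that stood apart.

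Without 1 array the counts were 5 to 12 (untreated colitis), 3 to 6 (probiotic colitis), 5 to 19 (cyclosporine against healthy), 6 to 15 (against untreated colitis), 7 to 13 (against probiotic colitis), 0 to 2 (probiotic in colitis) and 13 to 25 (F test). The median change of cyclosporine against probiotic colitis ranged from -0.23 to -0.0501. Untreated colitis against healthy fell to 5 without healthy untreated mouse 6 or colitis untreated mouse 6 or 10.

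With the animal number as a block, the counts were 3 for cyclosporine against healthy, 7 against untreated colitis, 4 against probiotic colitis and 0 for the probiotic in colitis. Same-number mice correlated between -0.18 and 0.41 in their deviations (median 0.02, 5 of 20 pairs over 0.1), and 4 of 16 arrays correlated best with their own number. These correlations cannot decide whether same-number mice share more than a number, because the cage of each mouse is not given. The cause of the differences in counts was not tested. Signal near the filter level compresses changes, which limits Snord90, Snord37 and Snord85 most.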
